A study of Mus musculus with 12 samples.

Results

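The genes described here are the semaphorin, ephrin and Slit guidance genes of the mouse, taken with their receptors: every gene of the deposited table whose symbol names a semaphorin of classes 3 to 7, a plexin, a neuropilin, an Eph receptor, an ephrin, a Slit or a Robo receptor. The rule found 59 genes of 24421 in all, and 57 of the 59 were tested. The other 2, Sema5b and Slit1, lay at the floor, the value a gene takes with few or no reads, in 11 of 12 libraries each. They were described but not tested. RNA was sequenced in bulk from 6 tumors of p53 knockout mice, described as sarcoma of bone or bone marrow (KO tumors), from mesenchymal stem cells of p53 knockout mice (KO MSCs, 3 libraries) and from the same cell population of p53 wild-type mice (WT MSCs, 3 libraries). The MSCs were bone marrow cells sorted with the surface profile CD45-Ter119-CD31-LepR+CD140a+, that is, without blood and endothelial surface proteins and with the leptin receptor and PDGF receptor alpha. All samples were freshly isolated; no sort of the tumors is described, although the labels call them tumor cells. The sources used here do not give the p53 allele, any Cre driver, the age or strain of the animals, or whether libraries of a group came from separate animals, so a p-value measures the spread between these libraries, which may in part be technical.

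Guidance molecules steer growing axons and migrating cells by attracting or repelling them. Semaphorins act through plexins, the secreted class 3 members mostly with a neuropilin as the ligand-binding partner; ephrins are held in the membrane and signal into the cell with the Eph receptor as well as into the cell that carries the ephrin; Slits are secreted proteins that repel cells through Robo receptors. Outside the nervous system the same genes pattern blood vessels, with ephrin-B2 on arteries and its receptor EphB4 on veins as the textbook pair, and they act in bone, where osteoblasts and osteoclasts exchange semaphorin and ephrin signals.

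Values are on the authors' stabilized log2 scale, on which 1 unit approaches a log2 unit of expression for well expressed genes and less than that for weak ones. A gene with few or no reads takes a floor value, and the authors' batch adjustment moved that floor separately for each gene and batch around a common value of 4.75. Exactly shared floor values placed WT MSC 1, KO MSC 1 and tumors 1 to 3 in batch 1 and the other 7 libraries in batch 2. At the floor lay 9251 to 10244 genes in the tumors, 2632 in KO MSC 1, 11253 in KO MSC 2, 12336 in KO MSC 3, 3730 in WT MSC 1, 10610 in WT MSC 2 and 10931 in WT MSC 3. Trp53, the targeted gene, had 6.79 to 9.16 in the tumors, 10.49, 9.76 and 6.96 in the libraries labelled KO MSC 1, 2 and 3, and 9.96, 10.04 and 10.61 in the WT MSCs. The libraries labelled KO MSC 1 and KO MSC 2 thus stood near the WT level; which part of Trp53 was deleted is not given, so Trp53 RNA checks these labels only in part. KO MSC below means the library so labelled. Marker genes of other cells also separated the groups. All 10 LepR+ stromal markers fell in the tumors against the WT MSCs and 6 of 10 against the KO MSCs, and their mean level was 6.95 to 9.03 in the tumors, 11.03 to 11.95 in the KO MSCs and 12.39 to 13.46 in the WT MSCs. Of 12 macrophage markers 11 rose in the tumors against either MSC group (mean level 10.67 to 13.87 in the tumors, 5.27 to 6.59 in KO MSCs, 5.20 to 6.68 in WT MSCs). Of 10 endothelial markers 8 rose against the WT MSCs and 4 against the KO MSCs (6.92 to 9.04 in the tumors, 5.56 to 5.96 in KO MSCs, 5.37 to 5.88 in WT MSCs). Lepr and Pdgfra in the stromal list and Pecam1 (CD31) in the endothelial list encode proteins by which the MSCs were sorted. No sort of the tumors is described, so these markers are no independent measure of a difference between tumors and MSCs. Of 9 lymphocyte markers 2 rose in the tumors against either MSC group. Erythroid markers fell in 5 of 10 in both tumor comparisons, and neutrophil and granulocyte markers in 3 of 10 against the WT MSCs and 6 of 10 against the KO MSCs. Of 6 Schwann and glial markers 1 fell against the WT MSCs, and Sox10 and Gfap lay at the floor in all 6 tumors. No marker of skeletal muscle, osteoblasts or neurons passed in either tumor comparison, and no marker of any list passed between KO and WT MSCs. In bulk RNA, fewer cells of a type and less RNA per cell cannot be told apart, and the part of these cells in the results below was not tested.

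Promoters are shown for 4 genes that the results turn on: Efnb2 and Sema3a, which were higher in the tumors than in WT MSCs, and Ephb4 and Nrp1, which were lower. Each sequence is the 250 bases before the gene's RefSeq start, 5′ to 3′ on the gene's strand, on build GRCm38.p6. Capitals mark GC boxes (GGGCGG or its complement CCGCCC) and CCAAT boxes (CCAAT or ATTGG); these are letter matches, not shown binding sites. Efnb2 lies at chr8:8661243-8661492 on the minus strand, Sema3a at chr5:13396534-13396783, Ephb4 at chr5:137349859-137350108 and Nrp1 at chr8:128358823-128359072, the last 3 on the plus strand. In GENCODE, Sema3a begins at 13125414 and Nrp1 at 128358604, so these windows precede the RefSeq start and lie within an intron of a longer transcript. None of the 4 windows holds an annotated exon base.
Efnb2: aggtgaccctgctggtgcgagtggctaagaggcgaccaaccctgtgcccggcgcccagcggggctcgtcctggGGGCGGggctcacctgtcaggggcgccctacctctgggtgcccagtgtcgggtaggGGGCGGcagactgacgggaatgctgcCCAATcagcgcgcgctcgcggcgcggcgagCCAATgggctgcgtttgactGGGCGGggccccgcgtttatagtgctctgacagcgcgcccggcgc
Sema3a: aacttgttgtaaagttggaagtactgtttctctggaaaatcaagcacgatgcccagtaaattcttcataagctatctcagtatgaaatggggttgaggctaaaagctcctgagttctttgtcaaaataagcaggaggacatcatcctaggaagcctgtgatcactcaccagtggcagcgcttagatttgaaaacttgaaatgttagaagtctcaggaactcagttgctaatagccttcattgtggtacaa
Ephb4: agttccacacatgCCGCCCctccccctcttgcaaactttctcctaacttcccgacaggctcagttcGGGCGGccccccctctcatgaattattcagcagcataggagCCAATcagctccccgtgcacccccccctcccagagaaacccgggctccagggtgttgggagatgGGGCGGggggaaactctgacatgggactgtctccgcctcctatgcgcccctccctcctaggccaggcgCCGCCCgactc
Nrp1: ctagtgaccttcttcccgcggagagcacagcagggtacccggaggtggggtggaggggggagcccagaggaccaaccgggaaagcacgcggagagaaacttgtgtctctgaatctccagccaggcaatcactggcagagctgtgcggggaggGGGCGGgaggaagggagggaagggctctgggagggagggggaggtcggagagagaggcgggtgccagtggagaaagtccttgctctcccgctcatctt

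The windows differed in composition. Efnb2 held 3 GC boxes and 2 CCAAT boxes in 72% G and C, Ephb4 held 4 GC boxes and 1 CCAAT box in 64%, Nrp1 held 1 GC box in 64.4%, and the Sema3a window held none of the motifs searched in 40.8%. RefSeq promoters were found for 52 of the 59 genes, 68 promoters in all, since some genes have several starts. A GC box stood in 72.1% of these 68 windows and in 32.7% of all 32851 promoter windows of the same length, searched on both strands. CCAAT was found in 27.9% against 33.8%, TATAAA in 2.94% against 12.4%, the E-box CACGTG in 5.88% against 6.02%, and a p53 half-site in 5.88% against 7.13%. The guidance promoters had a median of 64.2% G and C and 15 CpG positions per window, against 52.4% and 6 over all promoters. Of the 4 windows shown, Efnb2 alone held a TATAAA match, on the other strand and not in capitals.

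Tumors were set against WT MSCs first. The guidance genes did not move as a block: 14 of 57 passed the test, 4 higher and 10 lower in the tumors. The receptors neuropilin-1, plexin-A2, EphB4 and EphB6 and the ligands semaphorin-6D and ephrin-A5 were lower in the tumors, and ephrin-B2, semaphorin-3A, semaphorin-3C and plexin-A4 were higher. The test was limma's moderated test on the whole table with Benjamini-Hochberg adjustment over 18948 genes and a threshold of 0.05. By this rule 21.3% of all genes passed (10.4% higher, 10.9% lower), against 24.6% of the guidance genes (7.02% higher, 17.5% lower). The share of guidance genes that passed was thus near that of all genes. The median log2 difference was -0.26 over the guidance genes and -0.06 over all genes. That median changed with the libraries used: it was 0.056 with batch 1 alone, -0.059 with batch 2 alone, and -0.36 to -0.082 with 1 library left out, nearest 0 without tumor 2 (-0.082), WT MSC 2 (-0.11), WT MSC 3 (-0.14) or tumor 5 (-0.15). No direction of the guidance genes as a whole is read from it. Values of the tumors and WT MSCs did not overlap in 14 guidance genes, 4 higher and 10 lower, or 24.6% against 25.2% of all genes (12.9% higher, 12.3% lower). With batch 2 libraries alone 0 were higher and 2 lower, and with batch 1 alone 1 was higher and 5 lower, in fits with fewer libraries.

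**Figure D1:**
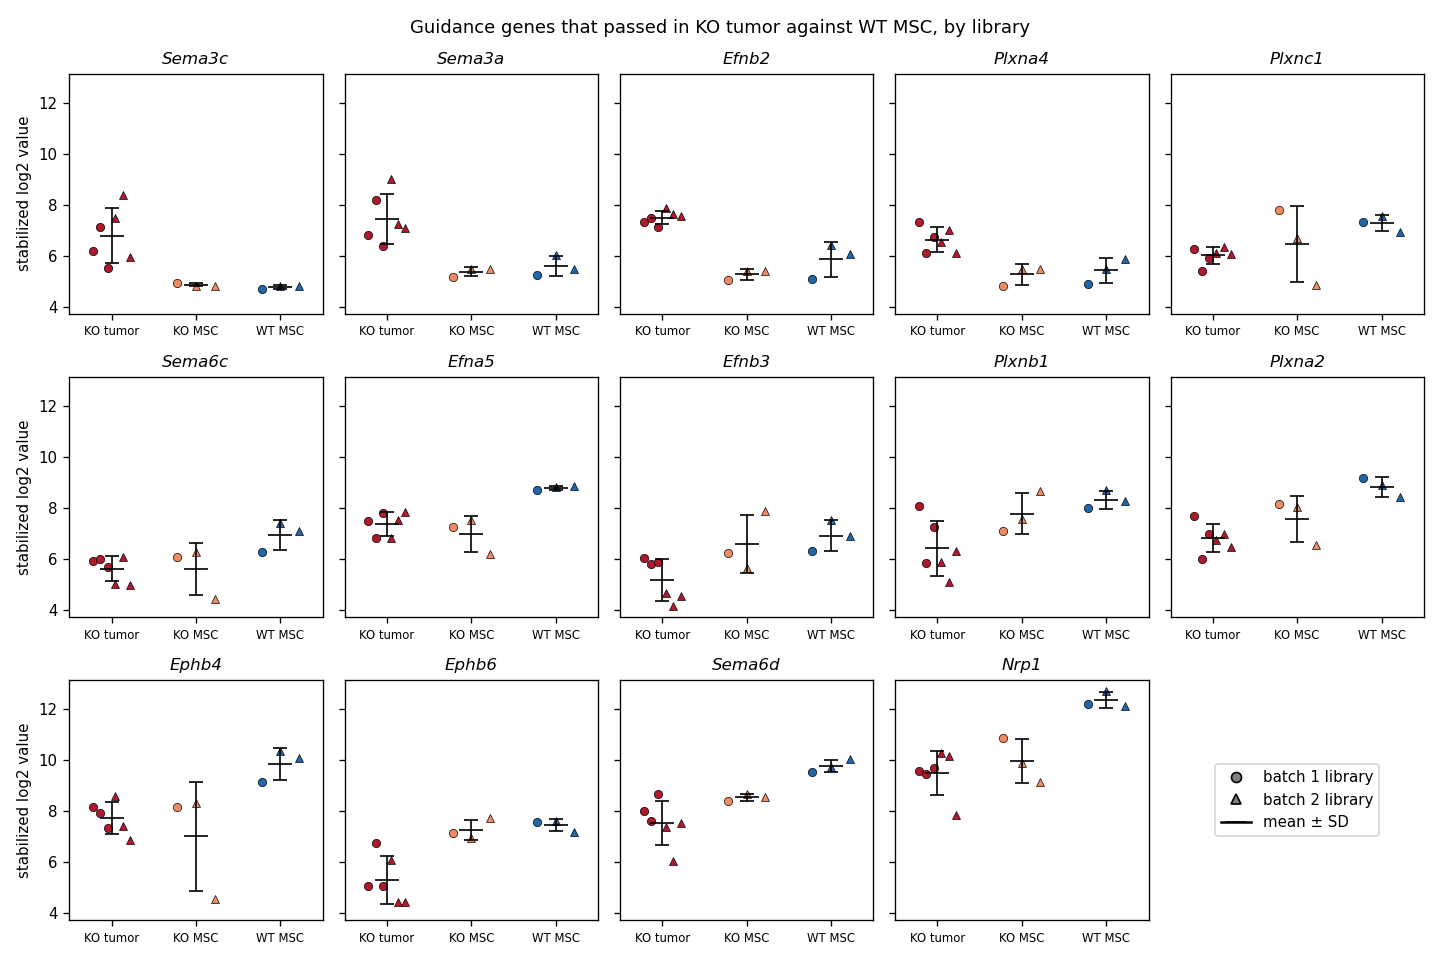
Stabilized log2 values of the 14 guidance genes that passed the test against WT MSCs, 1 point per library (shape gives the batch), with KO tumors, KO MSCs and WT MSCs from left to right and black marks at each group's mean ± SD. Tumor and WT MSC values overlap in Plxnb1 and in no other panel.

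Semaphorins came first among the ligands. Sema3a, a secreted repellent for axons that also acts on bone cells, had a lowest, median and highest value of 6.36, 7.17 and 9.01 in the 6 tumors, against 5.17, 5.49 and 5.49 in the KO MSCs and 5.25, 6.03 and 5.49 in the WT MSCs. KO MSC 2 and 3 and WT MSC 3 lay at the floor, and every tumor lay above every MSC library. The log2 difference between tumors and WT MSCs was 1.86 ± 0.55 (SE; n = 6 and 3; limma adjusted p = 0.0346). It was 1.86 within batch 1 and 2.02 within batch 2, and it lost its call without WT MSC 1 (limma adjusted p = 0.142), WT MSC 2 (0.0695), WT MSC 3 (0.113) or tumor 2 (0.0585).

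Sema3c, a secreted semaphorin known for its role in the outflow tract of the heart, had a lowest, median and highest value of 5.51, 6.67 and 8.40 in the tumors, against 4.94, 4.83 and 4.83 in the KO MSCs and 4.68, 4.83 and 4.83 in the WT MSCs. All 3 WT MSCs lay at the floor of their batch, so no fold is given (limma adjusted p = 0.0292), and the call was lost without any 1 of the WT MSCs (limma adjusted p = 0.0899 to 0.113). Sema3a, Sema3c, Sema3d and Sema3e lie within 5.35 Mb of chromosome 5, at 12383385 to 17730268 (GRCm38). Sema3d had 5.04 to 7.47 and Sema3e 4.64 to 7.02 in the tumors, and neither passed. Sema3f, a repellent that binds neuropilin-2, had 5.59 to 7.17 in the tumors and 4.30, 5.20 and 5.75 in the WT MSCs (log2 difference 1.18, limma adjusted p = 0.0543). For Sema3f, WT MSC 1 and WT MSC 2 lay at the floor of their batches, so the size of this difference is not a measured fold. Sema3b had 5.56, 7.43 and 8.29 as lowest, median and highest value in the tumors and 7.47, 7.39 and 7.33 in the WT MSCs, a log2 difference of -0.11 (limma adjusted p = 0.908). Of the 7 secreted semaphorins 2 passed, both higher, and 5 had a positive difference.

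The membrane semaphorins that passed were lower in the tumors. Sema6d, a ligand of plexin-A1 in heart development, had 6.02, 7.57 and 8.65 as lowest, median and highest value in the tumors, against 8.38, 8.68 and 8.54 in the KO MSCs and 9.55, 9.71 and 10.03 in the WT MSCs. Tumors and WT MSCs did not overlap, and the difference was -2.22 ± 0.49 (limma adjusted p = 0.00931), -1.46 within batch 1 and -2.88 within batch 2. Its call held without any 1 of the 9 libraries. Sema6c had 4.98, 5.79 and 6.09 in the tumors and 6.28, 7.43 and 7.08 in the WT MSCs, -1.32 ± 0.36 (limma adjusted p = 0.0269). The Sema6c difference was -0.43 within batch 1 and -1.89 within batch 2, and the call was lost without tumor 6 (0.0509), WT MSC 2 (0.114) or WT MSC 3 (0.0981) and in a fit of all 3 groups together (0.0562). The other 9 tested membrane semaphorins did not pass. Sema5a, which guides axons by binding plexin-B3, had 7.73 to 9.69 in the tumors and 8.58, 9.72 and 9.23 in the WT MSCs (-0.69, limma adjusted p = 0.328). Sema7a, the semaphorin anchored by a lipid that binds integrins and plexin-C1, had 5.92 to 7.37 in the tumors and 4.69, 6.25 and 6.29 in the WT MSCs (0.91, limma adjusted p = 0.168).

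Among the semaphorin receptors the drop in Nrp1 was the largest difference of any guidance gene in this comparison. Nrp1, at chr8:128358604-128503363, encodes neuropilin-1, a co-receptor shared by class 3 semaphorins and vascular endothelial growth factor. Its lowest, median and highest values were 7.86, 9.63 and 10.26 in the tumors, against 10.86, 9.90 and 9.14 in the KO MSCs and 12.19, 12.71 and 12.12 in the WT MSCs. Every tumor and every KO MSC library lay below every WT MSC library. The difference was -2.84 ± 0.49 (SE; limma adjusted p = 0.00323), -2.61 within batch 1 and -2.99 within batch 2, and its call held without any 1 of the 9 libraries. Nrp2, the other neuropilin, had 7.74, 10.26 and 12.66 in the tumors and 9.42, 11.52 and 10.99 in the WT MSCs, and the tumors lay on both sides of the WT MSCs (-0.55, limma adjusted p = 0.730).

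Plexins, the signaling receptors of semaphorins, had 3 members lower, 1 higher and 5 that did not pass. Plxna2, a receptor of Sema6a in mouse neurons and of class 3 semaphorins with a neuropilin, had 6.01, 6.87 and 7.67 in the tumors, against 8.14, 8.04 and 6.54 in the KO MSCs and 9.18, 8.89 and 8.41 in the WT MSCs. Tumors and WT MSCs did not overlap, and the difference was -2.02 ± 0.39 (limma adjusted p = 0.00516), -2.29 within batch 1 and -1.92 within batch 2. Its call held without any 1 library.

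Plxnc1, a receptor of Sema7a, had 5.39, 6.09 and 6.34 in the tumors, against 7.80, 6.68 and 4.85 in the KO MSCs and 7.32, 7.57 and 6.93 in the WT MSCs (-1.26 ± 0.31, limma adjusted p = 0.0153). Without WT MSC 1 its adjusted p was 0.0622 and without WT MSC 2 it was 0.0738 by limma, and in a fit of all 3 groups together it was 0.111. Plxnb1, a receptor of Sema4d, had 5.10, 6.10 and 8.09 in the tumors, against 7.09, 7.55 and 8.66 in the KO MSCs and 8.0, 8.70 and 8.27 in the WT MSCs (-1.91 ± 0.59, limma adjusted p = 0.0417). Tumor 1, at 8.09, lay above WT MSC 1, the difference was -0.94 within batch 1 and -2.72 within batch 2, and the call was lost without tumors 2, 4, 5 or 6 or any 1 WT MSC (limma adjusted p = 0.0588 to 0.137). The Plxnb1 call was also lost with no filter (limma adjusted p = 0.0580), with the score table (0.0585) and with quantile scaling (0.0518). Plxna4, which acts with a neuropilin for Sema3a, was the higher one: 6.12, 6.63 and 7.32 in the tumors, against 4.80, 5.49 and 5.49 in the KO MSCs and 4.89, 5.49 and 5.89 in the WT MSCs. KO MSC 2 and 3 and WT MSC 2 lay at the floor. The difference was 1.21 ± 0.36 (limma adjusted p = 0.0350), 1.83 within batch 1 and 0.86 within batch 2, and it lost its call without tumors 3 or 5 or any 1 WT MSC (limma adjusted p = 0.0537 to 0.176) and with no filter (0.0527). Plxna1 did not overlap between tumors (7.47 to 9.08) and WT MSCs (9.12, 9.87 and 9.44) but missed the threshold (-1.12, limma adjusted p = 0.0864). The library kit does not mark strand, and Plxna4, Plxnb1 and Plxna1 share exon bases with genes on the other strand (Plxna4os3, Gm7628 and Gm26811). Reads on the shared bases cannot be told apart from those of the partner, and how many bases are shared was not measured.

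Ephrins split within their class. Efnb2, at chr8:8617434-8661242 on the minus strand, encodes ephrin-B2. Its lowest, median and highest values were 7.13, 7.51 and 7.86 in the tumors, against 5.03, 5.38 and 5.38 in the KO MSCs and 5.10, 6.40 and 6.05 in the WT MSCs. KO MSC 2 and 3 lay at the floor, and every tumor lay above all 6 MSC libraries. The 6 tumors spanned 0.73 for Efnb2, an SD of 0.25. The difference from WT MSCs was 1.64 ± 0.35 (limma adjusted p = 0.00832), 2.2 within batch 1 and 1.45 within batch 2, and its call held without any 1 library. Efnb3, encoding ephrin-B3, a ligand known from the midline of the spinal cord, went the other way: 4.15, 5.22 and 6.04 in the tumors, against 6.24, 5.65 and 7.86 in the KO MSCs and 6.31, 7.52 and 6.89 in the WT MSCs. Its difference was -1.73 ± 0.47 (limma adjusted p = 0.0249), -0.41 within batch 1 and -2.75 within batch 2. Tumors 4, 5 and 6, all of batch 2, had 4.65, 4.15 and 4.55, below the common floor value of 4.75. No shared floor value was found for Efnb3. Its floor in each batch is thus unknown, and the size of the difference is not read as a measured fold. The call was lost without tumor 6 (limma adjusted p = 0.0501), WT MSC 2 (0.108) or WT MSC 3 (0.0770). Efnb3 lies on chromosome 11 on the strand opposite to Trp53, and 20154 bases separate it from the start of Trp53.

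Efna5, which encodes ephrin-A5, had 6.80, 7.49 and 7.85 in the tumors, against 7.23, 7.54 and 6.20 in the KO MSCs and 8.70, 8.81 and 8.84 in the WT MSCs. Tumors and WT MSCs did not overlap (-1.41 ± 0.33, limma adjusted p = 0.0129), the difference was -1.34 and -1.44 within batches 1 and 2, and the call was lost without any 1 WT MSC (limma adjusted p = 0.0523 to 0.0598). Efna1, a ligand of EphA2, had 7.87, 8.90 and 10.39 in the tumors, against 6.34, 8.13 and 7.36 in the KO MSCs and 7.42, 7.95 and 7.39 in the WT MSCs. Tumor 5, at 7.87, lay below WT MSC 2, and the difference of 1.44 did not pass (limma adjusted p = 0.0655). Efnb1 had 7.65 to 9.81 in the tumors and 9.20, 9.89 and 9.54 in the WT MSCs (-0.89, limma adjusted p = 0.168).

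Of the Eph receptors, only B-class members passed in this comparison: Ephb4 and Ephb6, both lower, of 5 tested, against 0 of 9 EphA receptors. This split between the classes was not tested. Ephb4, at chr5:137350109-137378669, encodes the receptor of ephrin-B2. It had 6.86, 7.67 and 8.59 in the tumors, against 8.16, 8.31 and 4.55 in the KO MSCs and 9.15, 10.34 and 10.07 in the WT MSCs. Every tumor and every KO MSC lay below every WT MSC, and KO MSC 3 lay far below the other 2 KO MSCs. At 4.55, KO MSC 3 was below the common floor value of 4.75, so it may lie at an unrecognized floor. The difference between tumors and WT MSCs was -2.13 ± 0.43 (limma adjusted p = 0.00620), -1.33 within batch 1 and -2.58 within batch 2. Its call held without any 1 library but was lost in a fit of all 3 groups together (limma adjusted p = 0.0524), where the spread of the KO MSCs enters. Ephb4 shares exon bases with Zan on the other strand.

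Ephb6, a receptor whose kinase domain is inactive, had 4.42, 5.08 and 6.76 in the tumors, against 7.15, 6.95 and 7.71 in the KO MSCs and 7.57, 7.60 and 7.19 in the WT MSCs. Tumors 1, 3, 5 and 6 lay at the floor, and every tumor lay below all 6 MSC libraries. The sizes of the Ephb6 differences are therefore not measured folds. The difference from WT MSCs was -2.14 ± 0.50 (limma adjusted p = 0.0128), -1.92 within batch 1 and -2.42 within batch 2, and its call was lost without WT MSC 1 (limma adjusted p = 0.0613) or WT MSC 2 (0.0523). Epha3, a receptor of ephrin-A5, had 6.14, 7.05 and 8.38 in the tumors, against 5.85, 6.34 and 5.27 in the KO MSCs and 6.15, 6.17 and 5.74 in the WT MSCs (1.13, limma adjusted p = 0.129). Epha1, Epha5, Epha6, Epha8 and Epha10 lay at the floor in 5 or 6 of the 6 tumors.

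No Slit or Robo gene passed. Slit3 had 6.21, 8.55 and 9.72 in the tumors, against 7.68, 7.91 and 8.44 in the KO MSCs and 8.94, 9.67 and 9.83 in the WT MSCs (-1.13 against WT MSCs, limma adjusted p = 0.236). Slit2 had 6.14 to 9.42 in the tumors and 7.33, 9.44 and 8.83 in the WT MSCs (-0.41, limma adjusted p = 0.701). Robo1, a Slit receptor, had 5.73 to 6.97 in the tumors and 7.24, 7.41 and 6.67 in the WT MSCs (-0.80, limma adjusted p = 0.129). Robo2 reached 8.49 in tumor 6 and stood at 5.07 to 6.37 in the other 5 tumors, and Robo3 lay at the floor in 10 of 12 libraries.

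**Figure D2:**
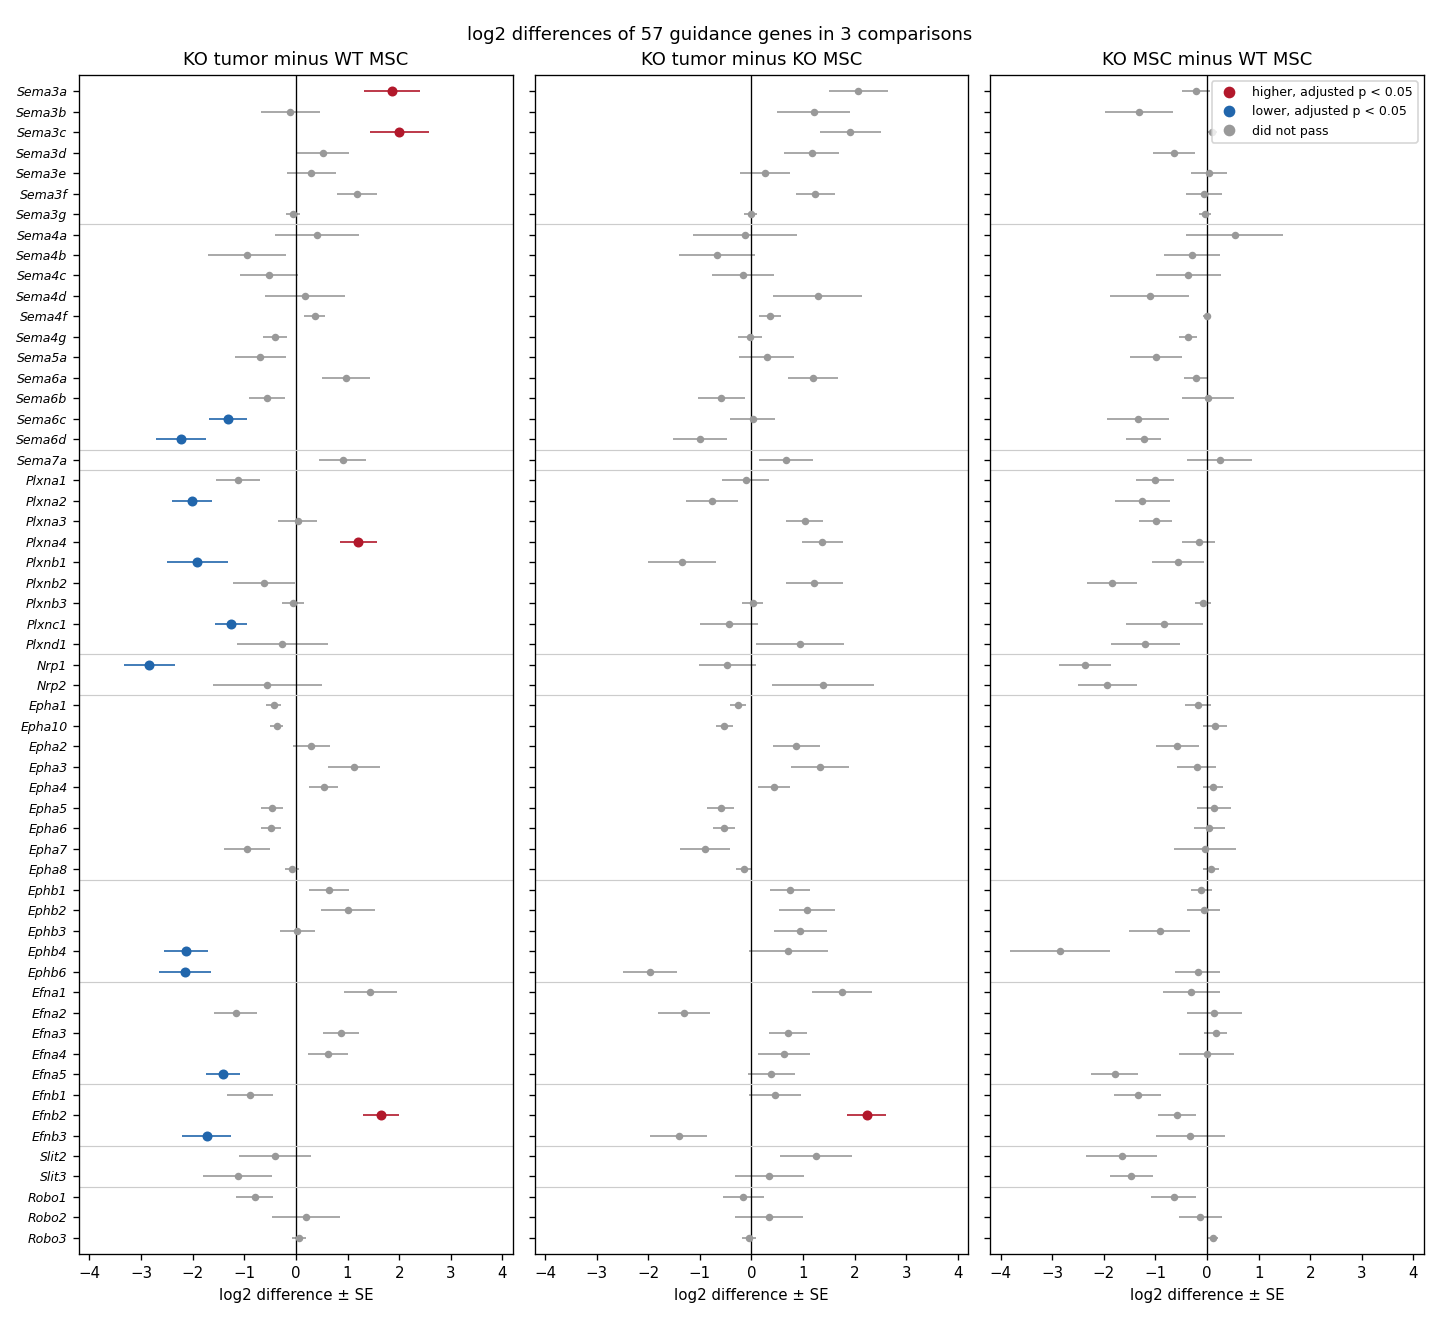
Log2 differences with SE for the 57 tested guidance genes, by role, in the 3 comparisons (tumors against WT MSCs, tumors against KO MSCs, KO MSCs against WT MSCs). Red (higher) and blue (lower) points passed the threshold: 14 against WT MSCs, 1 against KO MSCs and 0 between the MSC groups.

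Against the libraries labelled KO MSC, which share the tumors' genotype label, ephrin-B2 was the guidance gene that passed. Efnb2 was 2.23 ± 0.37 higher in the tumors (SE; n = 6 and 3; limma adjusted p = 0.00913), 2.28 within batch 1 and 2.30 within batch 2. KO MSC 2 and 3 lay at the floor, so the 2.23 and the 2.30 are not measured folds. By this rule 4.98% of all genes passed (2.7% higher, 2.28% lower), against 1 of 57 guidance genes, or 1.75%. Both tumor comparisons use the same 6 tumors. The call for Efnb2 was lost without KO MSC 1, the library labelled knockout that holds the highest Trp53 value of its group (2.11, limma adjusted p = 0.0634). Alongside, endothelial and macrophage markers were higher in the same tumors, with the values given above, and the part of those cells in the Efnb2 difference was not tested.

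Values of tumors and KO MSCs did not overlap in 7 guidance genes, or 12.3% against 13.4% of all genes. For 6 of the 7 the tumors were the higher group (8% of all genes): Efnb2, Sema3a, Sema3c, Sema3f, Plxna3 and Plxna4. Of these, Sema3a differed by 2.07 (limma adjusted p = 0.0616), Plxna4 by 1.37 (0.0696), Sema3f by 1.24 (0.0753) and Sema3c by 1.92 (0.0806). Plxna3 differed by 1.03 (limma adjusted p = 0.117). KO MSC 2 and 3 lay at the floor in all 6, Efnb2 and Plxna3 included, so the sizes of these differences are not measured folds. Ephb6 was lower in every tumor (5.39% of all genes were lower without overlap), by 1.96 on the log2 scale, and missed the threshold (limma adjusted p = 0.0555). Tumors 1, 3, 5 and 6 lay at the floor for Ephb6, so this size is not a measured fold. The median difference was 0.34 over the guidance genes and 0.04 over all genes. Without KO MSC 3 the median of the guidance genes was 0.11, with library weights 0.03 and with batch 1 alone 0.13. Of the secreted semaphorins 6 of 7 had a positive difference, with a median of 1.21, but the median was 0.032 with batch 1 alone (5 of 7 positive) and 1.96 with batch 2 alone (7 of 7). Nrp1, far below WT MSCs in the tumors, differed from the KO MSCs by -0.47 ± 0.56 (limma adjusted p = 0.626).

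Between the libraries labelled KO MSC and the WT MSCs no guidance gene passed, and no gene of the table did (0% of 18948; lowest limma adjusted p = 0.551). At an unadjusted limma p below 0.05 there were 12 guidance genes, all lower in the KO MSCs, or 21.1% against 8.64% of all genes (2.57% higher, 6.07% lower). Those 12 were Nrp1, Nrp2, Plxna1, Plxna2, Plxna3, Plxnb2, Efna5, Efnb1, Ephb4, Sema6d, Slit2 and Slit3. In 16 guidance genes the groups did not overlap, again all lower in the KO MSCs, or 28.1% against 15.2% of all genes (8.93% lower). The difference was below 0 in 43 of 57 guidance genes, 75.4% against 52.2% of all genes, with a median of -0.29 against -0.01. With quantile scaling the median of the guidance genes was -0.03 and 31 of 57 were below 0. KO MSC 3 had the most genes at the floor of all libraries, 12336, and leaving it out gave 43 of 57 below 0 and a median of -0.34. Without WT MSC 2 the median was -0.14, with 41 of 57 below 0, and with batch 1 alone it was -0.16. With upper-quartile scaling it was -0.19, with 37 of 57 below 0.

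By unadjusted p, the genes ranked first were receptors and membrane or secreted ligands of several families. Nrp1 had 10.86, 9.90 and 9.14 in the KO MSCs and 12.19, 12.71 and 12.12 in the WT MSCs, a log2 difference of -2.37 ± 0.50 (SE; n = 3 each; limma adjusted p = 0.551). It was -1.32 within batch 1 and -2.89 within batch 2. Nrp2 had 8.25, 8.88 and 8.98 in the KO MSCs and 9.42, 11.52 and 10.99 in the WT MSCs, -1.94 ± 0.57 (limma adjusted p = 0.551). All KO MSC values of both neuropilins lay below all WT MSC values, and both differences were below 0 under each alternative scaling. Plxnb2, a receptor of Sema4c and of angiogenin, had 8.04, 8.31 and 8.64 in the KO MSCs and 9.22, 10.87 and 10.41 in the WT MSCs, -1.84 ± 0.49. The tumors had 8.45 to 10.81 for Plxnb2, across both ranges.

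Plxna3, a receptor of class 3 semaphorins, had 5.41, 4.91 and 4.91 in the KO MSCs, the last 2 at the floor, and 5.55, 6.50 and 6.17 in the WT MSCs (-1.0 ± 0.32). Its difference was -0.14 within batch 1 and -1.42 within batch 2. All 9 plexins had a difference below 0, 8 of 9 with quantile or upper-quartile scaling, and 8 of 9 within each batch. Efna5 had 7.23, 7.54 and 6.20 in the KO MSCs and 8.70, 8.81 and 8.84 in the WT MSCs (-1.79 ± 0.46), and Efnb1 had 8.15, 8.93 and 7.53 in the KO MSCs and 9.20, 9.89 and 9.54 in the WT MSCs (-1.34 ± 0.46). Slit3 had 7.68, 7.91 and 8.44 in the KO MSCs and 8.94, 9.67 and 9.83 in the WT MSCs (-1.47 ± 0.41), and Sema6d 8.38, 8.68 and 8.54 in the KO MSCs and 9.55, 9.71 and 10.03 in the WT MSCs (-1.23 ± 0.34). Each of these had a limma adjusted p of 0.551. The Ephb4 difference of -2.85 ± 0.97 rested in part on KO MSC 3, at 4.55: without it the difference was -1.62. LepR+ stromal markers had a median difference of -1.30 for KO against WT MSCs, osteoblast markers -1.25, neutrophil and granulocyte markers 1.09 and erythroid markers 0.88. No marker of these lists passed, and their part in these differences was not tested.

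**Figure D3:**
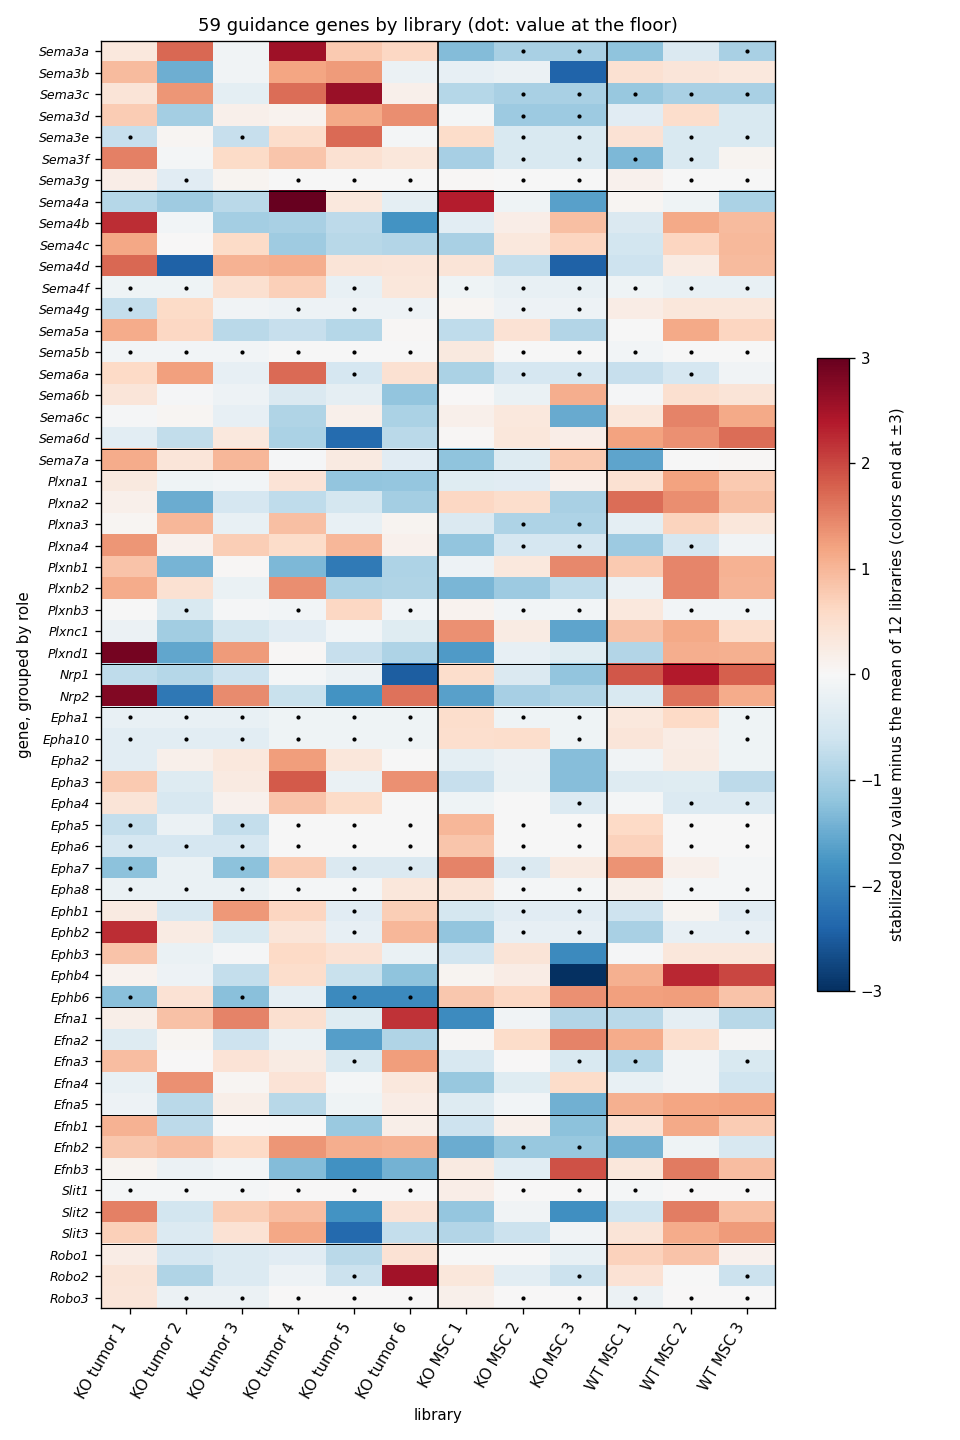
Stabilized log2 value of each guidance gene in each of the 12 libraries, centered on the gene's mean, with libraries ordered as KO tumors, KO MSCs and WT MSCs and genes by role; colors end at -3 and 3, and a dot marks a value at the floor. Nrp1, Plxna2, Ephb4 and Sema6d are above their mean in all 3 WT MSCs, and Efnb2 is above its mean in all 6 tumors.

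The tumors also differed among themselves. Over the 22 guidance genes with a value of at least 8 in any tumor, the median SD was 1.03, against 0.719 over the 9120 genes that reached that value, as a description without a test. Genes entered both sets by their highest value in the same tumors, which selects for spread near the cutoff. Robo2, for example, entered through tumor 6 alone. The sets were not matched for level, so no trait of the guidance genes is read from the 2 medians. The 6 genes with the largest SD were Nrp2 (2.02), Plxnd1 (1.64), Sema4a (1.57), Sema4d (1.46), Sema4b (1.39) and Slit3 (1.26). Nrp2 had 12.66, 7.74, 11.30, 9.22, 8.09 and 11.52 in tumors 1 to 6, so tumors 1, 3 and 6 were high. Plxnd1, a receptor of Sema3e in blood vessels, had 11.36, 6.94, 9.78, 8.53, 7.81 and 7.58, highest in tumor 1. Sema4b had 10.66 in tumor 1 and 6.65 to 8.36 in the others. Sema4d, which restrains bone formation in mice and is also made by immune cells, had 9.46, 5.31, 8.77, 8.82, 8.13 and 8.09, with tumor 2 apart on the low side.

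Sema4a, a semaphorin of immune cells, had 10.05 in tumor 4 and 5.87 to 7.25 in the other 5, and among the MSCs the library labelled KO MSC 1 held the highest value, 9.28. Neutrophil and granulocyte markers averaged 12.02, 9.24 and 8.08 in the libraries labelled KO MSC 1, 2 and 3 and 7.07 to 10.41 in the WT MSCs, lymphocyte markers 6.22, 5.49 and 5.03 in KO MSC 1, 2 and 3 and 5.25 to 5.59 in the WT MSCs, and erythroid markers 10.23 to 12.54 in the KO MSCs and 9.71 to 12.71 in the WT MSCs. KO MSC 1 was thus the highest MSC library for the neutrophil and lymphocyte lists as well, and the part of these cells in its Sema4a value was not tested. Slit3 had 9.26, 8.13, 8.97, 9.72, 6.21 and 7.83 in tumors 1 to 6. Of the 22 genes, 8 were highest in tumor 1, 8 in tumor 4, 2 each in tumors 5 and 6 and 1 each in tumors 2 and 3. The same count was not made for all genes. Tumors 4 and 1 also had the highest medians over all filtered genes, 7.08 and 6.96, against 6.68 to 6.87 in the other tumors. By upper quartile tumor 4 was again highest, at 8.86, while tumors 1 and 5 both stood at 8.61. The count is therefore not read as a trait of the guidance genes. The mean level of 8 osteoblast markers was 13.59 in tumor 1, 11.81 in tumor 3, 11.51 in tumor 6 and 7.11 to 8.56 in the other 3. Skeletal muscle markers averaged 13.74 in tumor 4 and 5.02 to 10.37 in the others, and macrophage markers were also highest in tumor 4, at 13.87. The part of these cells in the spread was not tested.

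**Figure D4:**
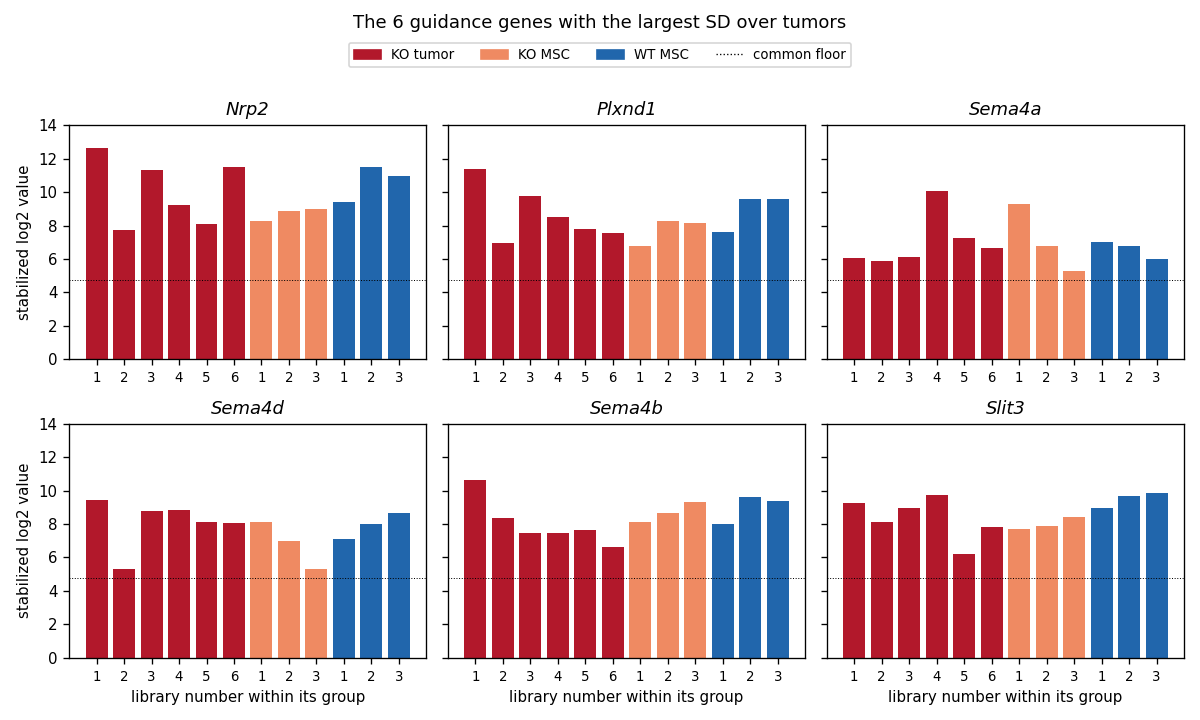
Stabilized log2 values of the 6 guidance genes with the largest SD over the tumors among those that reached 8 in any tumor. Each panel has 1 bar for each of the 12 libraries, with KO tumors, KO MSCs and WT MSCs from left to right. A dotted line marks the common floor. Among the tumors, tumor 1 is highest for Nrp2, Plxnd1, Sema4d and Sema4b, and tumor 4 for Sema4a and Slit3.

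Genes of the same pathways outside the rule were counted from 3 lists. By the same test 21.3% of all genes passed against WT MSCs (10.4% higher, 10.9% lower) and 4.98% against KO MSCs. The counts below are not read as a trait of these lists. Of 28 effectors of plexins, Eph and Robo receptors, 3 rose in the tumors against WT MSCs: Fyn, a kinase downstream of plexin-A and ephrins (2.51), Srgap1, a GTPase-activating protein of the Robo pathway (2.32), and Arhgef15, an exchange factor of endothelial cells (1.01). Mical1, an actin-oxidizing enzyme downstream of plexin-A (-1.92), and Nck2, an adaptor (-1.05), fell. Against the KO MSCs 2 of 28 rose, Fyn (2.68) and Farp1, a plexin-A-associated exchange factor (2.06), and none fell. Of 15 tested netrin-system genes 1 fell against WT MSCs, Ntng2 (-0.91), and none passed against KO MSCs. Of 8 other receptors and partners, Cd72, a B-cell receptor of Sema4d (4.34), and Robo4, the endothelial Robo (1.71), rose against WT MSCs, while Plxdc2 (-4.30) and Itgb1, a subunit of the Sema7a receptor (-1.43), fell. Cd72 also rose against KO MSCs (4.19). No gene of the 3 lists passed between KO and WT MSCs.

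The remaining 30 guidance genes were the A ephrins Efna2, Efna3 and Efna4, all EphA receptors but Epha3, Ephb1, Ephb2, Ephb3, Robo2, Robo3, Slit1, Slit2, Plxna1, Plxnb3, the membrane semaphorins Sema4c, Sema4f, Sema4g, Sema5b, Sema6a and Sema6b, and Sema3d, Sema3e, Sema3f and Sema3g. The 28 of these that were tested had log2 differences between -1.17 and 1.18 for tumors against WT MSCs, between -1.31 and 1.25 for tumors against KO MSCs and between -1.65 and 0.17 for KO MSCs against WT MSCs, and their lowest limma adjusted p values were 0.0543, 0.0753 and 0.554 in those comparisons. Of all 59 guidance genes, 31 had no library recognized at the floor and 13 lay at the floor in 6 or more. A floor value that no other library of the batch shares can go unrecognized, so some of the 31 may hold one.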

How the data were processed

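The 12 libraries were grouped by the genotype and cell type in their titles. Per the labels' protocols, RNA was copied with a SMART-Seq v4 kit and the library kit was NEBNext Ultra DNA, which keeps no strand information. TopHat2 2.0.13, Cufflinks 2.2.1, Cuffdiff and build mm10 are named per the submitters' processing notes; the sources used here do not give the later steps. The authors deposited stabilized, batch-adjusted log2 values of 24421 genes, which were used as they stand. Their other deposited table, titled as normalized counts, holds a score. Multiplied by 1 factor for each library, the score equals the rounded stabilized value times 100 in 100% of its 18949 genes (tolerance 0.01). It served as the filter and as an alternative. No reads can be recovered, so the depth is unknown, no interval for counting error is given, and the planned pseudocount was not needed.

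limma 3.58.1 (R 4.3.3; lmFit, eBayes with trend) was fitted separately for each comparison on the 18948 filtered genes that vary, two-sided, with Benjamini-Hochberg adjustment and a threshold of 0.05. Standard errors are limma's. The script was tested on simulated data. Batches were read from exactly shared floor values: at least 545 between libraries of a batch and 0 across batches. A lone library at the floor of its gene in both batches cannot be recognized. Gene positions are GENCODE M21 (GRCm38) and promoters RefSeq GRCm38.p6. Replicate numbers were not used as pairs, since the labels do not say what a number marks (sensitivity part).

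The members and lists were chosen with earlier results of these data known. Named are members past the threshold, the 8 with the smallest unadjusted p where none passes, the highest mean per role, and the 6 with the largest tumor SD among those reaching 8; further members were named after their values were seen. Alternatives were another filter, the score table, upper-quartile and quantile scaling, batch as covariate, each batch alone, a replicate block, library weights, a fit of all 3 groups, and leaving out each library.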

Additional observations from a re-analysis of the deposited data

Results flagged for a closer look

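A library was marked where its gap to the nearest other tumor, divided by the range of the 6 tumors, exceeded Dixon's value of 0.625. The 29 named guidance genes were checked, 3 were marked, and chance marks about 1 group in 20 where genes are not chosen by their spread. Sema4a and Sema4d were among the 29 because of their large SD over the same 6 tumors, so that rate does not apply to them. Nrp1 in tumor 6 stood at 7.86, below the 9.46 to 10.26 of the other 5 tumors. Sema4a in tumor 4 stood at 10.05, above the 5.87 to 7.25 of the others. Sema4d in tumor 2 stood at 5.31, below 8.09 to 9.46 in the others. Mean marker levels set the same tumors apart in several lists. Tumor 4 was highest for macrophage (13.87), skeletal muscle (13.74), endothelial (9.04), lymphocyte (7.34) and neuronal (6.82) markers and lowest for erythroid markers (6.46). Tumor 2 was lowest for osteoblast (7.11), endothelial (6.92), lymphocyte (5.77), neutrophil and granulocyte (5.39), skeletal muscle (5.02) and Schwann and glial (5.02) markers. Tumor 6 was lowest for LepR+ stromal markers (6.95) and highest for erythroid markers (10.02). The part of these cells in the marked values was not tested.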

How the results depend on the processing

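No call changed direction, but the median over the guidance genes for tumors against WT MSCs changed sign with batch 1 alone, as did those of the membrane semaphorins (-0.52, with batch 1 alone 0.20), Slits (-0.77, with batch 1 alone 0.50) and Robo receptors (0.061, with batch 1 alone -0.74). For tumors against WT MSCs (4 higher, 10 lower, median -0.26), batch 2 alone gave 0 higher and 2 lower (all genes 184 and 356). Batch 1 alone gave 1 and 5 with a median of 0.056 (all genes 353 and 2456), a replicate block 0 and 1 (723 and 722) and library weights 9 higher (3171 and 3650). Leaving out libraries gave 1 to 5 higher and 4 to 11 lower, lowest without WT MSC 2, with medians of -0.36 to -0.082. For tumors against KO MSCs (1 higher, 0 lower, median 0.34; all genes 512 and 432), upper-quartile scaling gave 2 higher and 2 lower, and quantile scaling 3 lower (all genes 520 and 961). Batch 2 alone gave 0 higher (9 and 18), batch 1 alone 6 lower (394 and 2853), a replicate block 0 higher (19 and 15), library weights 8 and 4 (2574 and 2247), and a fit of all 3 groups 5 and 1 (1143 and 780). Leaving out libraries gave 0 to 1 higher and 0 to 1 lower, with medians of 0.11 to 0.44. All-gene counts were 41 and 72 without KO MSC 1, 184 and 212 without KO MSC 2, and 704 and 923 without KO MSC 3. For KO against WT MSCs (0 and 0, median -0.29), batch 2 alone gave 1 lower (all genes 2 and 41) and library weights 10 lower (827 and 1620), and leaving out libraries gave medians of -0.43 to -0.14. The weights did not converge in either comparison with KO MSCs. The causes were not tested, other than the fewer libraries in a batch or a left-out fit. Upper-quartile scaling moved the median of all genes by 0.10 in both comparisons with WT MSCs. Same-numbered libraries had correlations of their deviations of -0.32, -0.09 and 0.005 (tumors and WT MSCs), -0.22, -0.07 and 0.22 (tumors and KO MSCs) and 0.24, 0.15 and -0.15 (KO and WT MSCs). The numbers were not taken as pairs, but so few correlations, from libraries of 2 batches, cannot exclude pairing. The pseudocount alternative was not run, since the values are already logarithms. Depth is unknown, which limits statements on the 13 guidance genes at the floor in 6 or more libraries.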
